A study of Mus musculus with 4 samples.

Results

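Cdkn1a, Mdm2, Ccng1, Gdf15, Trp53inp1, Phlda3 and Bax are well-known transcriptional targets of the tumour suppressor p53. They were taken by gene symbol from the gene lists of the deposited matrices, where each symbol occurred, so that 7 of 32287 listed genes were followed. The cells came from mice in which a tamoxifen-inducible Cre recombinase (CreERT2), driven by the promoter of the smooth muscle gene Myh11, was carried by both groups. KO mice (named Tgfbr1/2iSMCKO) carried floxed alleles of both TGF-beta receptor genes, Tgfbr1f/f and Tgfbr2f/f, together with the Cre transgene Myh11-CreERT2 and the reporter mT/mG, and gave 2 libraries. WT mice (named GFPiSMC) carried Myh11-CreERT2.mT/mG with no floxed receptor gene and gave 2 libraries. In mT/mG cells a membrane tdTomato is made until Cre switches the reporter to green fluorescent protein. All mice were C57BL/6J, received tamoxifen, and were studied at 12 weeks of age, when the wall of the ascending aorta and arch was digested in the cold and viable GFP+ cells were sorted. Tamoxifen was injected intraperitoneally for 5 days, 1 mg per day at 4 weeks or 2 mg per day at 11 weeks of age. The course of each library is not given, so course and genotype cannot be told apart. They give 2000 to 4000 cells from individual segments per sample but no number of mice per library, so p-values measure the spread between these libraries, which may be partly technical.

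p53 is kept at a low level by ubiquitin ligases, foremost MDM2, and accumulates when DNA damage, oncogene activity or other stress interrupts that control. It then binds DNA as a tetramer at paired sequence elements and switches on genes that halt the cell cycle, repair damage, export stress signals or prepare cell death, and MDM2 itself, which closes a feedback loop. In the arterial wall, the p53 target p21 is known as a brake on smooth muscle proliferation.

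The promoter sequence was available for 6 of the 7 genes, in 8 windows reaching from 250 bases before to 50 bases after an annotated RefSeq start (build GRCm38.p6), with 2 starts each for Cdkn1a and Gdf15. A p53 element consists of 2 copies of a half-site of 10 bases. It was searched with spacers of 0 to 13 bases and up to 2 mismatches in all, the fixed C and G of each copy being required. The half-site consensus reads the same on both strands, so that a single pass covers both. The 250 bases before the start are shown for the genes with such a match there, so that the elements can be seen in place. Capitals mark the matching elements, everything else is in lower case, and each line runs 5′ to 3′ on the gene's own strand. The Cdkn1a line is chr17:29090729-29090978 on the plus strand, the Ccng1 line chr11:40755287-40755536 on the minus strand, and the Bax line chr7:45466899-45467148 on the minus strand.
Cdkn1a, upstream start: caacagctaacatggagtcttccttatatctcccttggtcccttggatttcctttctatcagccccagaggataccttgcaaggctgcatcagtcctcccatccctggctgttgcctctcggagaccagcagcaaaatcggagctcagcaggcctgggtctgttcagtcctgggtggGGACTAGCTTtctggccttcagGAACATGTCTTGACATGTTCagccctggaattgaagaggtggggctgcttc
Ccng1: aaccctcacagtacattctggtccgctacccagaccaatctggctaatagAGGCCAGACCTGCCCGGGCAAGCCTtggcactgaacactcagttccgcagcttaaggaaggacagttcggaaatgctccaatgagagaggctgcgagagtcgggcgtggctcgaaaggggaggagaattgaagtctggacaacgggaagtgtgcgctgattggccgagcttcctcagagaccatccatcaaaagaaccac
Bax: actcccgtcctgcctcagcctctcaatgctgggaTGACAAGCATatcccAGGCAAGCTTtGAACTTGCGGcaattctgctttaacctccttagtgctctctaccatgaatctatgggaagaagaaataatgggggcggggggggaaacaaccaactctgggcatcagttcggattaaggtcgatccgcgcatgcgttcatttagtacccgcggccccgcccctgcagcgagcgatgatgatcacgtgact

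Before the upstream Cdkn1a start, an element with no spacer and 1 mismatch, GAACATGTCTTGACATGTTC, begins at position −51. It lies 2821 bases before the downstream Cdkn1a start. Its first copy also forms an exact pair with GGACTAGCTT, at a spacer of 12 bases. Such an exact pair was found in 24 of 32851 RefSeq promoter windows of the same length (0.0731%). In Ccng1, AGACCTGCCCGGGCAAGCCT begins at −195 with no spacer and 1 mismatch, and a second match with 2 mismatches overlaps it. In Bax, a pair of overlapping matches with 2 mismatches each begins at −216 and −201. Matches of this looser kind were found in 4.09% of all windows. The core ACATGT, a palindrome that overlaps the Cdkn1a element, was found in 5.28% of all windows and, among these genes, in Cdkn1a at −49 and −39 and in Phlda3 at 44 bases after the start. The windows of Mdm2, Gdf15 and the downstream Cdkn1a start held neither a paired element nor ACATGT, and Trp53inp1 was not in the promoter table. A match describes letters in this window only.

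After filtering, 4252 and 3522 cells in KO 1 and KO 2, against 2429 and 3265 in WT 1 and WT 2, were used, with 35255748 to 59203071 UMIs (unique molecular identifiers, each standing for 1 captured transcript) per library and medians of 13898 to 15383 UMIs per cell. Median mitochondrial shares were 3.76% and 3.83% in KO and 4.62% and 3.86% in WT. Of the barcodes, 17 occurred in more than 1 library. The smooth muscle label fitted the marker genes: the summed level of 7 smooth muscle markers was 50603 and 47550 counts per 1000000 UMIs (CPM) in KO and 44775 and 46824 CPM in WT. Markers of other cell types were sparse. Endothelial markers summed to 18.2 and 16.7 CPM in KO and 15.6 and 18.6 CPM in WT, although 4 of the 5 tested were higher in KO and Cdh5, the endothelial cadherin, was at 0 in both WT libraries. Macrophage markers summed to 7.19 and 0.331 CPM in KO and 0.545 and 0.305 CPM in WT, and lymphocyte markers stayed at or below 0.201 CPM in every library. Fibroblast markers summed to 338 and 326 CPM in KO and 603 and 590 CPM in WT, with 3 of 7 higher in KO and 1, Col1a1, lower. Schwann cell markers summed to 2.54 and 2.49 CPM in KO and 4.44 and 3.80 CPM in WT. Of these 3 markers, 1 was tested, and it was lower in KO. The Schwann cell marker Sox10 and the lymphocyte marker Cd3e were at 0 in every library. Leaving out the 41 and 40 KO cells and the 18 and 19 WT cells with UMIs of 2 or more markers of 1 other cell type gave log2 differences of 0.90 for Cdkn1a and 1.39 for Gdf15. The transcripts of Tgfbr1 (73.3 and 76.1 CPM in KO, 80.8 and 82.3 CPM in WT) and Tgfbr2 (46.5 and 47.3 CPM in KO, 51.6 and 45.1 CPM in WT) were counted in all libraries. Since the position of the deleted part is not given and reads come from the 3′ end, these levels do not check the deletion. The tdTomato transcript stood at 9.97 and 6.75 CPM in KO and 0.0287 and 0.142 CPM in WT, and its part in the results was not tested.

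All 7 genes had higher levels in both KO libraries than in both WT libraries, and 5 of them, Cdkn1a, Ccng1, Gdf15, Trp53inp1 and Phlda3, passed the test across all genes (edgeR's quasi-likelihood test on summed counts, Benjamini-Hochberg adjusted p under 0.05). Over the 14474 genes tested, 20.3% were called, 9.17% as higher and 11.1% as lower in KO. Both KO libraries lay above both WT libraries for 31.3% of the tested genes and below both for 32.3%. The median log2 difference (KO over WT) of the 7 genes was 0.59, against −0.00 over all tested genes. These genes were chosen with earlier results of these data known, so the counts describe them and test nothing about the group.

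The targets tied to cell-cycle arrest were both higher in KO cells. Cdkn1a encodes p21, the inhibitor of cyclin-dependent kinases through which p53 halts the cell cycle. It stood at 135 and 117 CPM in KO 1 and KO 2 and at 66.9 and 68.5 CPM in WT 1 and WT 2. The lower KO library was well above the higher WT library, and KO 1 stood above KO 2. With means of 126 ± 12.8 CPM in KO and 67.7 ± 1.16 CPM in WT (SD, n = 2 each), the log2 difference was 0.90 (SE 0.08, adjusted p = 0.000274 by edgeR), a 1.86-fold higher level. Ccng1 encodes cyclin G1, a partner of protein phosphatase 2A that helps to activate MDM2. It stood at 47.5 and 48.2 CPM in KO and 40.4 and 37.1 CPM in WT, groups that did not overlap, with a log2 difference of 0.31 (SE 0.07, adjusted p = 0.0223 by edgeR). The Ccng1 call was lost without KO 2 (adjusted p = 0.0595) and without WT 2 (adjusted p = 0.127). On GRCm38 (GENCODE M21), Cdkn1a covers chromosome 17 from 29090976 to 29100727 and Ccng1 chromosome 11 from 40748552 to 40755311. A short tentative gene model, AC167363.2, lies within Cdkn1a on the other strand.

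The feedback inhibitor of p53 had the smallest difference. Mdm2, the ubiquitin ligase that degrades p53, stood at 36.0 and 36.7 CPM in KO and 33.6 and 31.8 CPM in WT. The libraries of the genotypes did not overlap, but the log2 difference of 0.15 (SE 0.07) did not pass the test (adjusted p = 0.173 by edgeR). It did not pass under any of 14 other settings, where the log2 difference lay between 0.10 and 0.19.

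The largest fold among the 7 was that of the secreted member. Gdf15 encodes a divergent cytokine of the TGF-beta superfamily, released by stressed cells and acting on a receptor in the hindbrain. It was counted 883 and 595 times in KO 1 and KO 2 and 187 and 237 times in WT 1 and WT 2, that is 14.9 and 11.6 CPM in KO and 5.36 and 4.81 CPM in WT. The KO libraries stood far above the WT libraries, and KO 1 was again above KO 2. The log2 difference was 1.38 (SE 0.14, adjusted p = 0.0005 by edgeR), a 2.61-fold higher level. Gdf15 covers chromosome 8 from 70629393 to 70632456.

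Phlda3, a small pleckstrin-homology protein that competes with AKT for membrane lipids and so restrains it, rose in KO cells. It stood at 68.7 and 57.3 CPM in KO 1 and KO 2 and 43.8 and 40.0 CPM in WT 1 and WT 2, so that KO 2 lay between KO 1 and the WT libraries. The log2 difference was 0.59 (SE 0.10, adjusted p = 0.00479 by edgeR). Of the genes tied to cell death and autophagy, 1 of 2 passed the test. Trp53inp1, a stress-induced nuclear protein that promotes p53 activity and autophagy, stood at 37.7 and 47.5 CPM in KO and 22.6 and 27.0 CPM in WT, with a log2 difference of 0.78 (SE 0.13, adjusted p = 0.00422 by edgeR). Here KO 2 was the higher KO library, the opposite of Cdkn1a, Gdf15 and Phlda3. Trp53inp1 lies on chromosome 4 from 11156431 to 11174379, the chromosome of the floxed Tgfbr1, at a distance of 36.2 Mb. Bax, the effector that permeabilizes the outer mitochondrial membrane, stood at 111 and 107 CPM in KO and 95.5 and 93.8 CPM in WT. Its groups did not overlap, but the log2 difference of 0.21 (SE 0.06) missed the threshold (adjusted p = 0.0532 by edgeR). Bax overlaps the gene model Gm45808 on the same strand, so its UMI count may be affected by that model.

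**Figure D1:**
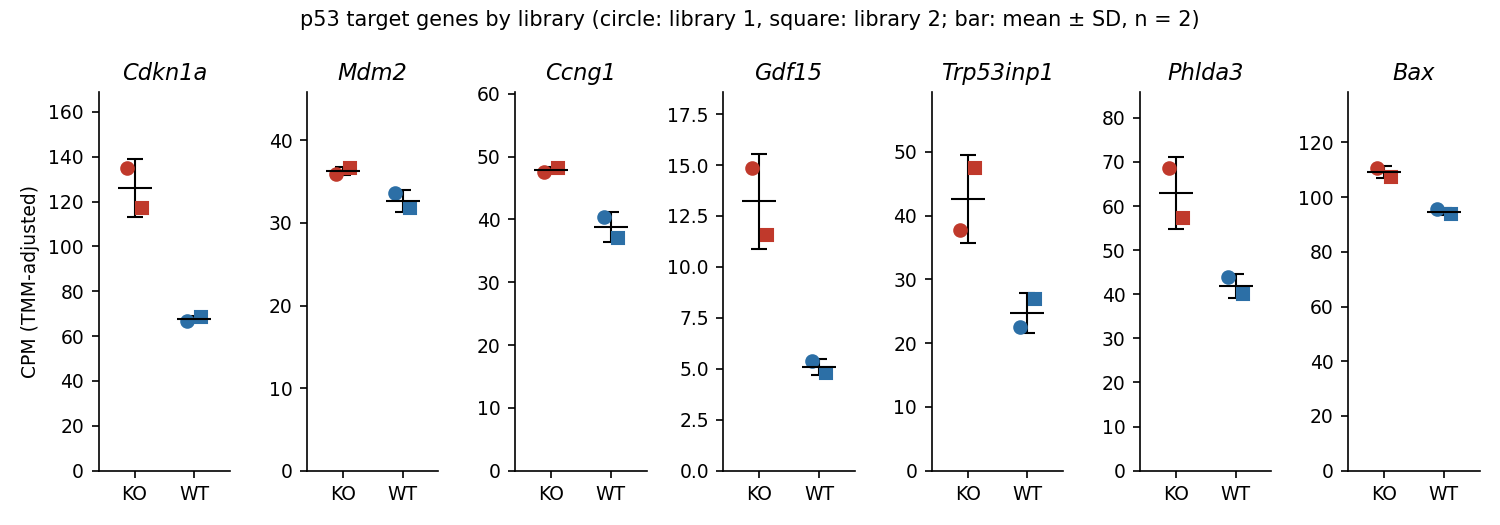
Levels of the 7 p53 target genes in each library, in CPM on an axis from 0 for each gene, with KO to the left of WT. Circles are library 1, squares library 2, and bars the mean ± SD of 2 libraries. The gap between genotypes is widest relative to the level for Gdf15 (13.2 against 5.09 CPM on average) and narrowest for Mdm2 (36.3 against 32.7 CPM).

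The gene for p53 itself was slightly higher in KO. Trp53 stood at 45.4 and 44.2 CPM in KO and 35.2 and 38.1 CPM in WT (log2 difference 0.29, SE 0.07, adjusted p = 0.0271 by edgeR). Since p53 is mainly controlled through its protein, transcript levels say little of its activity. The median log2 difference of 16 tested genes of p53 and its regulators was 0.02. Of these genes, 1 was higher and 1 lower, against 9.17% and 11.1% of all tested genes. The lower one was Trp53bp1, a scaffold at DNA double-strand breaks, at 17.6 and 19.2 CPM in KO and 27.0 and 24.9 CPM in WT (log2 difference −0.49, adjusted p = 0.00557). Chek2, a kinase that phosphorylates p53 after DNA damage, had a log2 difference of −0.37 and an adjusted p of 0.0626. The inhibitor Mdm4 (log2 difference 0.03), the damage kinases Atm (0.08) and Atr (−0.03) and the phosphatase Ppm1d (0.22) were not called, and Cdkn2a was too rare to be tested, with 9 and 19 UMIs in KO and 4 and 9 UMIs in WT.

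Other known p53 targets moved in both directions, where 9.17% of all tested genes were called higher and 11.1% lower in KO. In the list of arrest and stress-defence targets, 4 of 20 tested genes were higher, 2 lower and 14 not called, with a median log2 difference of 0.18. Ephx1, the microsomal epoxide hydrolase, stood at 89.5 and 86.9 CPM in KO and 55.1 and 53.2 CPM in WT. It was the most firmly called of the list (log2 difference 0.70, SE 0.07, adjusted p = 0.000287). Dcxr, a carbonyl reductase, rose by 0.60 and the ribosomal protein paralogue Rps27l by 0.27 on the log2 scale. The other called genes of this list lie outside the naming rule: Plk2 was higher (0.97) and the fructose bisphosphatase Tigar (−0.48) and Sfn (−1.53) were lower, Plk2 and Sfn at under 2 CPM in every library. Btg2, an antiproliferative target that is also an immediate early gene, had 362 and 189 CPM in KO and 421 and 474 CPM in WT and was not called (adjusted p = 0.0827).

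Among apoptosis targets, 2 of 11 tested were higher and 3 lower, against 9.17% and 11.1% of all tested genes. Their median log2 difference was −0.10. Eda2r, a receptor of the TNF receptor family, was higher in KO with 78 and 74 UMIs in KO and 22 and 21 UMIs in WT (log2 difference 1.40, SE 0.28, adjusted p = 0.0104 by edgeR). The nuclease gene Aen, named although it lies outside the rule, was also higher (0.44, adjusted p = 0.0224). Bbc3, which encodes the BH3-only killer PUMA, was at 9.19 and 7.25 CPM in KO and 16.2 and 11.6 CPM in WT, and was lower (−0.75, SE 0.17, adjusted p = 0.0201). Perp, a membrane protein of desmosomes and p53-dependent death, was also lower (−0.43), as was the death receptor Tnfrsf10b (−0.33, adjusted p = 0.0479). Of 7 DNA repair targets, Mgmt, which removes alkyl groups from guanine, was higher (21.3 and 19.7 CPM in KO, 12.8 and 12.5 CPM in WT, log2 difference 0.70, adjusted p = 0.00108). The bypass polymerase gene Polk was lower (−0.44), and Xpc, Ddb2, Rrm2b, Ercc5 and Pcna were not called.

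**Figure D2:**
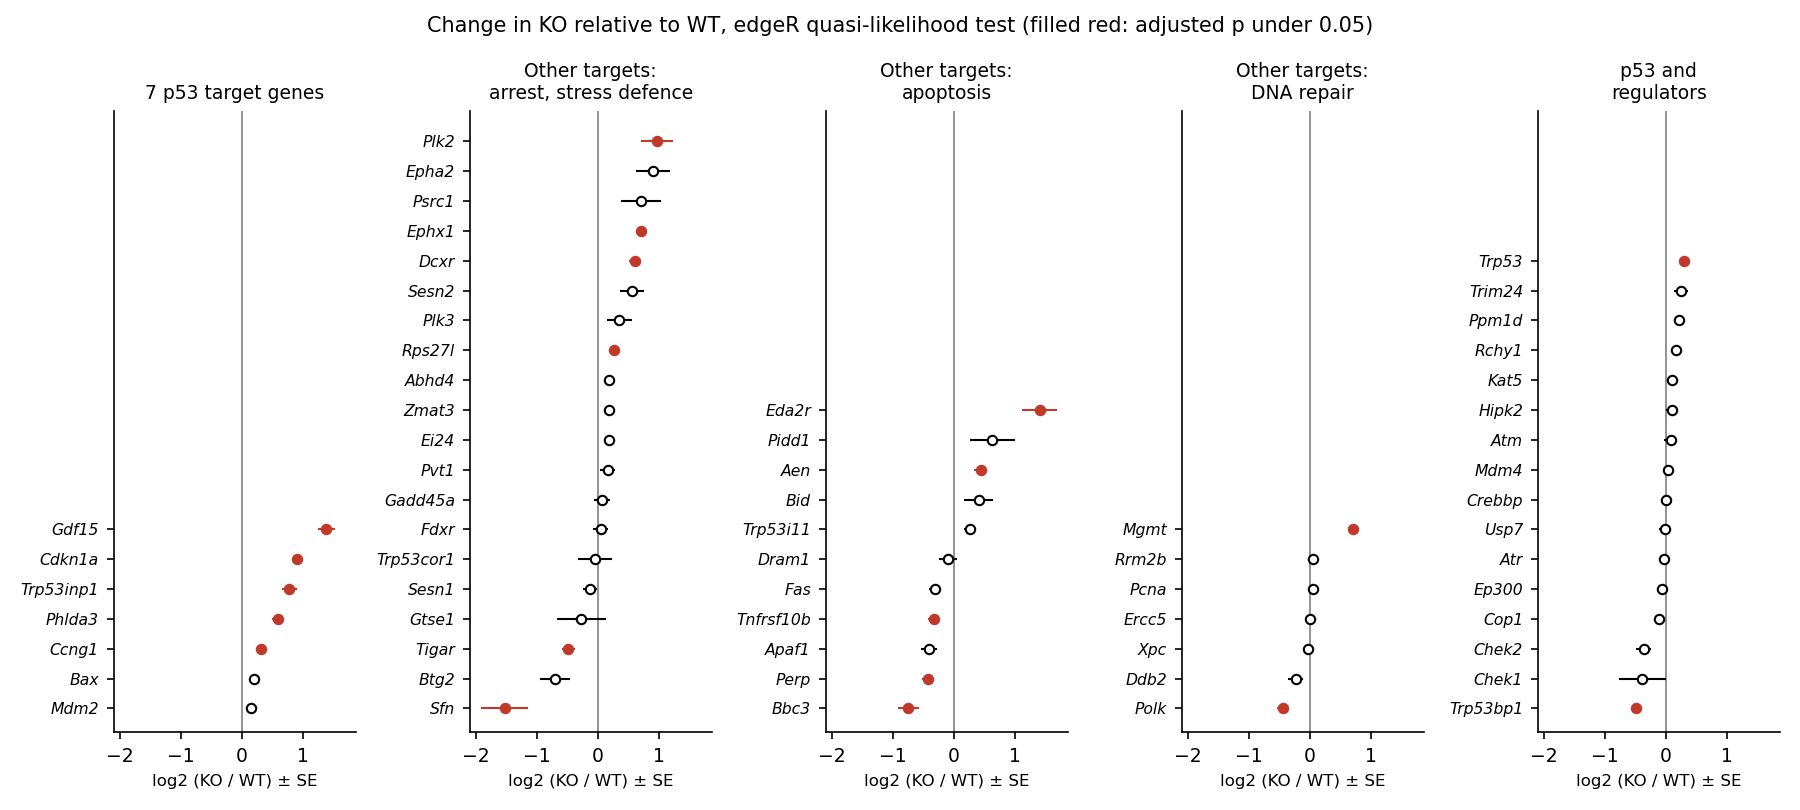
Log2 difference (KO over WT, points, with standard errors as bars) of the 7 targets, of other p53 targets in 3 groups and of p53 with its regulators, filled red where the adjusted p of edgeR's quasi-likelihood test was under 0.05. The 7 targets all lie above 0, while the other lists spread on both sides, with medians of 0.18, −0.10, 0.01 and 0.02.

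Among genes that share a function with the 7 targets, calls went in both directions, where 20.3% of all tested genes were called. Of 6 tested CDK inhibitors other than Cdkn1a, Cdkn2c (0.68) and Cdkn1c (0.26) were higher and Cdkn2b (p15, known as a TGF-beta target) was lower, at 6.72 and 7.54 CPM in KO and 10.5 and 10.4 CPM in WT (−0.56, adjusted p = 0.00845). Of 10 tested BCL2 family genes besides Bax, Bok was higher (9.77 and 10.5 CPM in KO, 3.32 and 3.55 CPM in WT, 1.55 on the log2 scale) and Bmf lower (4.43 and 3.81 CPM in KO, 12.4 and 12.0 CPM in WT, −1.56). Of 18 cyclin and cell-cycle genes, 2 were higher, the D-type cyclin genes Ccnd3 (0.27) and Ccnd1 (0.87), and Ccne2 was lower (−0.71). The proliferation marker Mki67 was counted 21 and 0 times in KO and 0 and 58 times in WT. In a list of senescence genes, 2 of 8 tested were higher, Mmp3 (3.14) and Igfbp5 (1.27), and 3 lower, among them Igfbp7 (−0.67) and Cdkn2b.

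The share of cells with at least 1 UMI was compared after thinning every cell to 5000 UMIs, which left 4102 and 3353 KO cells and 2232 and 3103 WT cells and left out 150 and 169 shallower KO cells and 197 and 162 shallower WT cells. Cdkn1a was detected in 26.1% and 23.2% of KO cells and 14.3% and 17.6% of WT cells. For Gdf15 the shares were 4.83% and 3.43% in KO and 1.70% and 1.84% in WT. Trp53inp1 was detected in 17.1% and 19.9% of KO cells and 10.1% and 11.8% of WT cells. Phlda3 was detected in 25.0% and 22.1% of KO cells and 16.2% and 15.7% of WT cells. The shares were closer in ratio for Bax (40.7% ± 0.628 in KO, 36.3% ± 1.03 in WT), Ccng1 (19.6% ± 0.418 in KO, 17.1% ± 0.651 in WT) and Mdm2 (16.9% ± 0.203 in KO, 14.7% ± 0.441 in WT; SD, n = 2 each). For each of the 7 the difference between the means was larger than either SD. The groups did not overlap for any of the 7, nor for 31.5% of all tested genes in the same direction. The exact two-sided permutation test gave p = 0.33 for each gene, the smallest value that 2 against 2 libraries allow. In unthinned cells the mean shares of cells with Cdkn1a were 39.7% ± 2.44 in KO and 29.3% ± 5.39 in WT. No cell type that lacks these genes was at hand to give a background share from free RNA.

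Cdkn1a was also more abundant within the cells that had it, and its UMIs were concentrated in few cells. A Cdkn1a-positive thinned cell held 2.54 and 2.55 UMIs on average in KO and 2.28 and 2.02 in WT, and up to 25 UMIs. The 5% of cells with the most Cdkn1a held 53.9% and 57.6% of its UMIs in KO and 70.1% and 61.7% in WT. For Bax, the same share of cells held 24.0% and 23.9% of UMIs in KO and 25.8% and 25.2% in WT. Cdkn1a was thus spread far less evenly over the cells than Bax in every library.

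More of the 7 transcripts were detected per cell in both KO libraries than in both WT libraries. The mean number of the 7 genes detected per thinned cell was 1.51 and 1.45 in KO and 1.10 and 1.15 in WT, a difference of 0.354 (exact permutation p = 0.33, the smallest possible). None of the 7 was detected in 20.6% and 23.0% of KO cells and 31.1% and 28.8% of WT cells. Cells with 4 or more of the 7 numbered 252 and 201 in KO, or 6.14% (95% Wilson interval 5.45 to 6.92) and 5.99% (5.24 to 6.85), and 57 and 64 in WT, or 2.55% (1.98 to 3.29) and 2.06% (1.62 to 2.63). These intervals cover counting error only. If the 7 genes were detected independently of each other, such cells would make up 3.70% and 3.23% in KO and 1.10% and 1.28% in WT. The observed number was 1.66 and 1.85 times that in KO and 2.32 and 1.61 times that in WT. The genotypes overlapped in this ratio at this depth, and it was not taken for sets of other genes. All 7 genes were found together in 3 and 9 KO cells and in 1 and 0 WT cells.

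**Figure D3:**
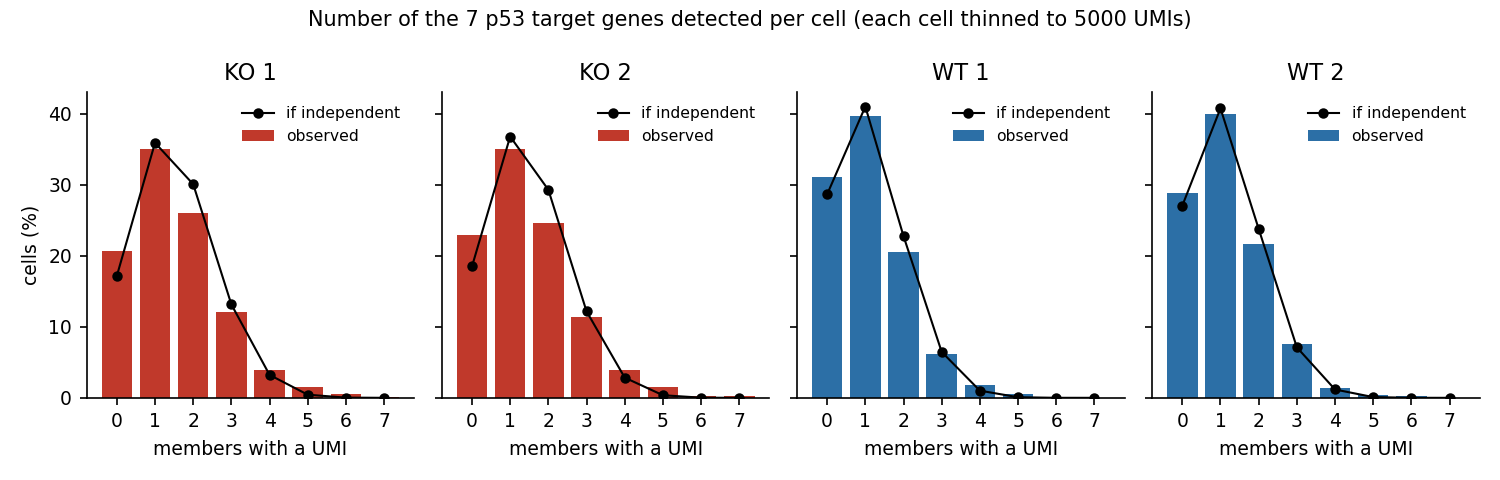
Share of cells (%) with 0 to 7 of the p53 target genes detected, in each library, after thinning to 5000 UMIs. Bars are the observed shares and the line gives the shares if the genes were detected independently. In all 4 libraries the bar at 0 genes and the summed share at 4 or more genes exceed the line, and KO cells reach 4 or more in 6.14% and 5.99%, against 2.55% and 2.06% of WT cells.

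Pairs of the 7 genes shared cells to different degrees. Of 21 pairs, 15 were found together more often than independence would give in all 4 libraries, and without thinning all 21 were. No ratio was taken over pairs of other genes, so the count describes these pairs only. The highest ratio was that of Cdkn1a and Gdf15, found together in 104 and 66 KO cells and 18 and 30 WT cells. That was 2.02 and 2.48 times the independent number in KO and 3.30 and 2.99 times that number in WT. At 10000 UMIs this pair had 1.54 and 1.75 times in KO and 2.10 and 2.02 times in WT. Gdf15 with Phlda3 reached 1.80 and 2.16 times in KO and 2.43 and 2.23 times in WT, and Cdkn1a with Phlda3 reached 1.57 and 1.57 times in KO and 1.93 and 1.46 times in WT. Every pair with Gdf15 and every pair with Cdkn1a was above 1 in each library. Gdf15 with Mdm2, Trp53inp1 or Ccng1 rested on only 10 to 13 cells in each WT library. A ratio cannot exceed 1 over the larger of the 2 shares, so its possible range differs between pairs and libraries. Mdm2 and Bax were close to independent, at 1.08 and 1.06 in KO and 0.976 and 0.904 in WT. Mdm2 and Ccng1 varied between libraries, at 1.15 and 0.950 in KO and 1.28 and 0.867 in WT.

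**Figure D4:**
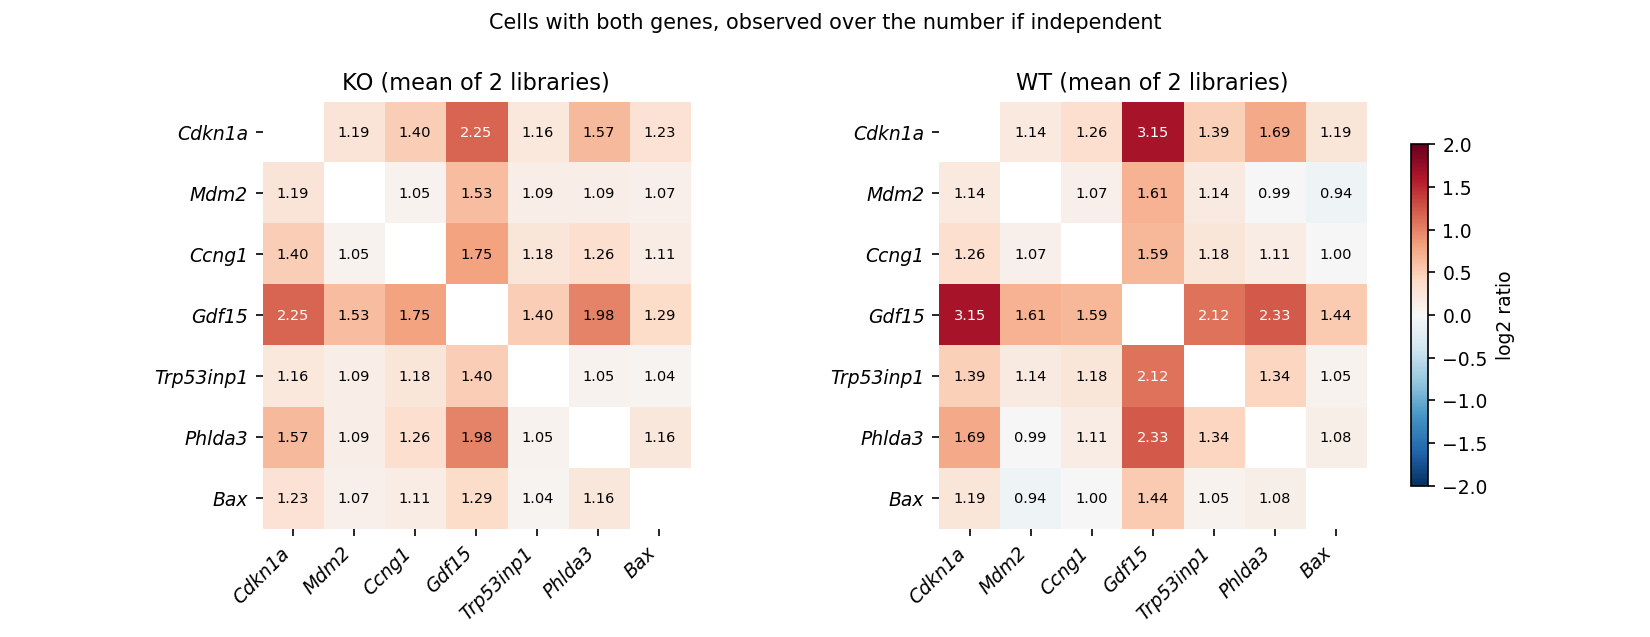
Number of thinned cells with both genes of a pair over the number expected if the genes were independent, as the mean of the 2 KO libraries (left) and the 2 WT libraries (right). Colour gives the log2 of the ratio. Gdf15 and Cdkn1a head both panels (2.25 in KO, 3.15 in WT), and pairs of Mdm2 with Bax, Ccng1 or Phlda3 lie near 1.

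Levels were also compared across single cells within a library. Among 7389 genes detected in at least 5% of thinned cells of every library, Cdkn1a was the gene with the highest mean correlation for each of the other 6 genes. Only Gdf15 with Cdkn1a reached r of at least 0.2 in all 4 libraries (Pearson r 0.243 and 0.217 in KO, 0.236 and 0.247 in WT, over 2232 to 4102 cells each, as a description over cells of 1 library that share its depth and preparation). Phlda3 was the closest gene to Cdkn1a (r 0.299 and 0.283 in KO, 0.300 and 0.189 in WT). Mdm2 with Cdkn1a had r of 0.0740 and 0.0999 in KO and 0.0586 and 0.0509 in WT, too weak in counts this sparse to be read as a finding.

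Cells were then grouped by their own Cdkn1a UMIs, a grouping chosen after the data had been seen. Cells with 3 or more Cdkn1a UMIs numbered 302 and 211 in KO (7.36% and 6.29%) and 70 and 100 in WT (3.14% and 3.22%). Gdf15 stood at 102 and 65.4 CPM in these KO cells and 109 and 94.0 CPM in these WT cells. In cells without Cdkn1a, Gdf15 stood at 7.98 and 5.82 CPM in KO and 2.30 and 2.27 CPM in WT. Gdf15 was therefore 12.8 and 11.2 times as high in Cdkn1a-rich cells as in cells without Cdkn1a in KO, and 47.2 and 41.4 times as high in WT, the last values resting on 22 and 29 Gdf15 UMIs in WT cells without Cdkn1a. Phlda3 was 4.70 and 5.09 times as high in KO and 9.23 and 5.47 times as high in WT. Ratios were smaller for the remaining targets, all above 1 in each library. For Ccng1 they were 2.97 and 3.09 in KO and 2.76 and 3.46 in WT. For Bax they were 2.35 and 2.53 in KO and 2.09 and 2.06 in WT. Trp53inp1 had 2.29 and 2.19 in KO and 3.56 and 3.08 in WT, the latter on 25 and 38 UMIs in Cdkn1a-rich cells. Mdm2 had 1.94 and 2.56 in KO and 2.67 and 2.00 in WT, the latter on 29 and 30 such UMIs. Cells with 1 or 2 Cdkn1a UMIs were not always above cells without Cdkn1a. Trp53inp1 in KO 1 stood at 31.8 against 38.4 CPM, and Mdm2 in WT 2 at 29.6 against 30.0 CPM. Of the other p53 targets, only Rps27l, Ephx1, Aen, Zmat3 and Fas were picked for this grouping. Targets that were lower in KO, such as Bbc3 and Perp, were not examined, and no ratio over all genes was taken. Aen (3.80 and 4.80 in KO, 4.08 and 3.79 in WT) and Ephx1 (2.45 and 3.22 in KO, 3.24 and 3.40 in WT) followed, as did Rps27l and Zmat3. Trp53 itself differed less (1.37 and 1.29 in KO, 1.64 and 1.22 in WT). Fas, a death receptor and known target, did not follow (1.20 and 1.10 in KO, 0.708 and 1.09 in WT), and Myh11, the smooth muscle myosin heavy chain, was lower in Cdkn1a-rich cells of every library (0.832 and 0.781 in KO, 0.765 and 0.707 in WT).

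For Gdf15, Trp53inp1 and Phlda3, the ratio of KO to WT was larger in cells without Cdkn1a than in Cdkn1a-rich cells. In cells without a Cdkn1a UMI the mean level was 3.02 times as high in KO as in WT for Gdf15, 1.89 times for Trp53inp1 and 1.44 times for Phlda3. In cells with 3 or more UMIs the ratio was 0.826 for Gdf15, 0.955 for Phlda3 and 1.29 for Trp53inp1. The Gdf15 level in Cdkn1a-rich WT cells rests on 38 and 47 UMIs in 70 and 100 cells. Mdm2 (1.15 against 1.10) and Ccng1 (1.08 against 1.06) had the same order with a smaller gap. For Bax the ratio was 1.10 in cells without Cdkn1a and 1.30 in Cdkn1a-rich cells. Cells without a Cdkn1a UMI among 5000 are not all free of Cdkn1a. In unthinned cells it was detected in 41.4% and 38.0% in KO and 25.5% and 33.1% in WT. After thinning these shares were 26.1% and 23.2% in KO and 14.3% and 17.6% in WT. How far such missed cells shape the ratios was not tested. These ratios rest on 2 libraries each and were not tested.

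**Figure D5:**
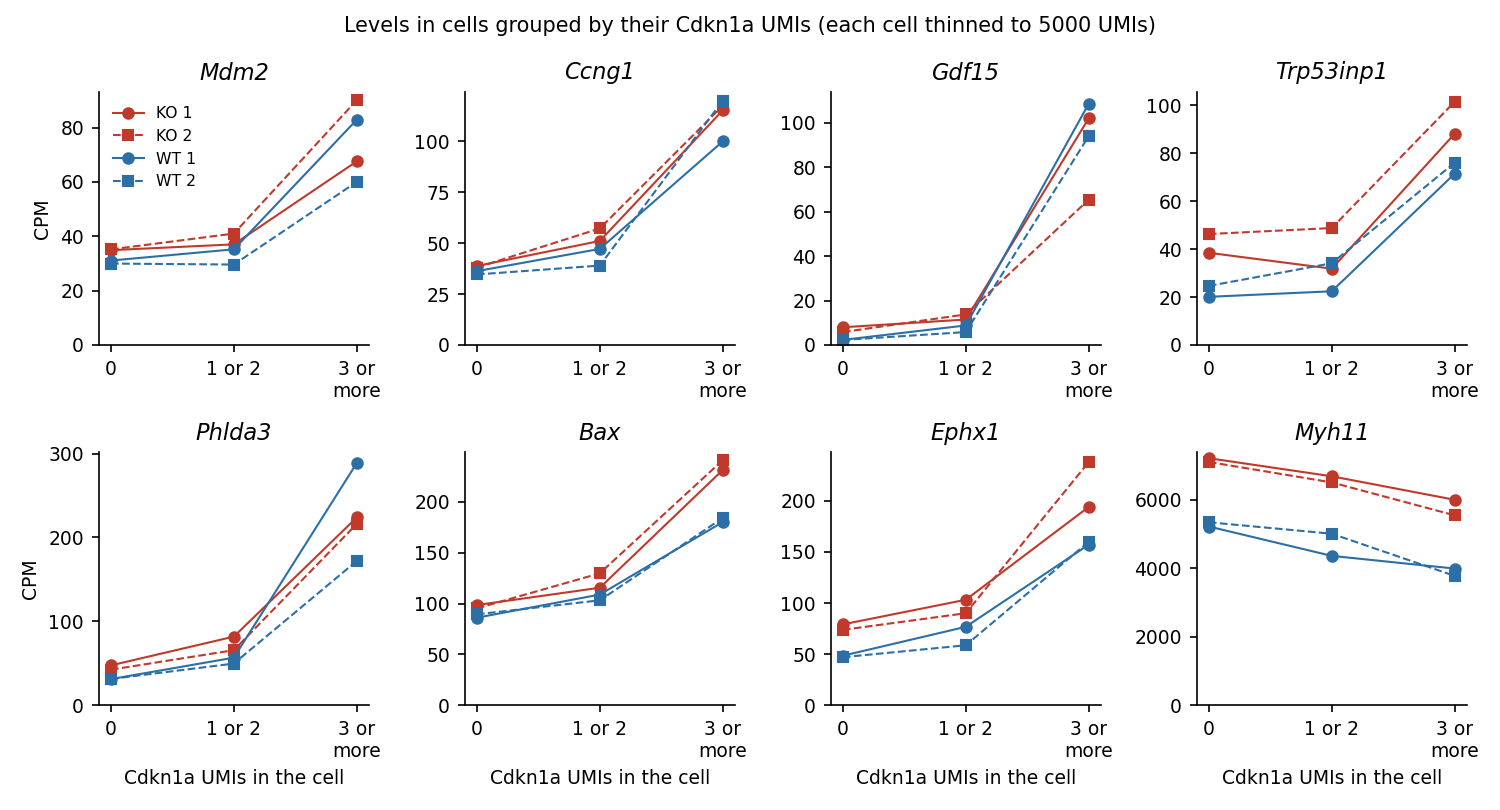
Level (CPM, axis from 0) of the other 6 targets, of the p53 target Ephx1 and of Myh11 in cells with 0, 1 or 2, and 3 or more Cdkn1a UMIs after thinning to 5000 UMIs, with 1 line per library (KO red, WT blue). The 6 targets and Ephx1 are highest in cells with 3 or more Cdkn1a UMIs in all 4 libraries, most steeply Gdf15, and Myh11 is lowest there.

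Immediate early genes, which tissue dissociation can induce, and the integrated stress response were followed beside these values. Over all tested genes, 9.17% were called higher and 11.1% lower in KO. With edgeR, no gene of the immediate early list was called higher in KO and 9 of 16 were called lower, with a median log2 difference of −0.83, led by Fos (59.3 and 57.3 CPM in KO, 359 and 363 CPM in WT, log2 difference −2.63), Klf2 (−1.88) and Dusp1 (−1.52). In the integrated stress response, a p53-independent pathway that also induces Gdf15, 0 of 15 tested genes were higher and 5 lower, with a median of −0.22. At an unadjusted p under 0.05, edgeR had 1 gene of the immediate early list and 2 of the integrated stress response higher in KO. DESeq2 called 1 of the immediate early list and 0 of the integrated stress response higher. Without an expression filter edgeR called 2 and 3 higher, and without the library WT 2 it called 2 of each list. Atf4, its central transcription factor, stood at 67.6 and 71.6 CPM in KO and 102 and 87.1 CPM in WT (log2 difference −0.44, adjusted p = 0.0095), and Nupr1, a stress-induced chromatin protein, at 72.1 and 71.8 CPM in KO and 789 and 818 CPM in WT (−3.48). Vldlr was lower too (−0.37), and so were Trib3 and Chac1, both at under 1 CPM in every library. Within libraries, cells were split into 3 equal parts by their summed immediate early UMIs. Gdf15 was 4.00 and 3.78 times as high in the highest as in the lowest part in KO and 3.56 and 2.15 times in WT, and was the 1 gene of the 7 above 1 in all 4 libraries. With Btg2, Ier3, Klf4 and Atf3, which p53 is known to regulate, left out of the sum, its ratios were 3.32 and 3.26 in KO and 1.92 and 1.68 in WT. Cdkn1a had ratios of 1.34 and 1.32 in KO and 0.824 and 1.00 in WT, and without those 4 genes 1.25 and 1.18 in KO and 0.736 and 0.900 in WT. In the lowest part, Cdkn1a stood at 113 and 107 CPM in KO and 70.4 and 66.9 CPM in WT. Gdf15 stood at 6.58 and 5.73 CPM in KO and 2.42 and 3.87 CPM in WT. In the highest part, Cdkn1a stood at 152 and 141 CPM in KO and 58.1 and 67.1 CPM in WT. There Gdf15 stood at 26.3 and 21.6 CPM in KO and 8.60 and 8.31 CPM in WT. The ratio of KO to WT was larger in the highest part than in the lowest for all of the 7 genes but Trp53inp1. Median immediate early UMIs in the lowest part were 8 and 7 in KO and 9 and 10 in WT. In the highest part they were 25 and 21 in KO and 31.5 and 35 in WT. The part of this load in the genotype difference was not tested.

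Depth and mitochondrial share were checked in bands of cells, also chosen after the data had been seen. Both KO libraries lay above both WT libraries for all 7 genes in cells of 5000 to under 15000 UMIs, in cells of 15000 UMIs and more, in cells with at most 5% mitochondrial UMIs and in cells with over 5%. Of all tested genes, 31.8%, 33.7%, 35% and 29.3% had this order in these 4 bands, in the same sequence. In cells of 1000 to under 5000 UMIs, 3 of the 7 genes had this order, Cdkn1a, Gdf15 and Trp53inp1, against 16.6% of all tested genes, on few cells (150 and 169 in KO, 197 and 162 in WT). In cells with at most 5% mitochondrial UMIs, Cdkn1a stood at 137 and 120 CPM in KO and 76.1 and 69.9 CPM in WT. Above 5% it stood at 123 and 115 CPM in KO and 47.2 and 53.3 CPM in WT. Above 5% lay 589 of 4252 and 628 of 3522 KO cells, and 930 of 2429 and 510 of 3265 WT cells. The part of mitochondrial share in the genotype difference was not tested.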

How the data were processed

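Droplet-based 3′ single-cell RNA sequencing (Chromium v3.1, per the labels' protocols) gave 4 matrices. The authors deposited raw UMI counts for each gene and barcode. Per the file headers they come from Cell Ranger 5.0.1. The build is mm10, and Seurat 4.0 is named without its role, per the submitters' processing notes. Whether counting used strand is not given in the sources used here. Groups were taken from the sample titles.

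Barcodes were kept from 1000 UMIs and 500 genes upward if mitochondrial UMIs made up no more than 10%, which left 13468 of 14696. The labels state 4031 and 3246 cells after filtering in KO and 2151 and 3000 in WT, against 4252 and 3522 in KO and 2429 and 3265 in WT kept here. Doublets were neither called nor removed, and cells were not clustered. Counts were summed per library and tested with edgeR 4.0.16 (R 4.3.3; quasi-likelihood test, TMM, default expression filter), adjusted over 14474 genes by the Benjamini-Hochberg method. CPM values use TMM-adjusted totals, with factors of 0.99 to 1.02. Libraries of 1 genotype differed by more than counting error (chi-square over its degrees of freedom 16.0 in KO and 13.8 in WT), with a biological coefficient of variation of 7.84%. Per-cell measures used cells thinned at random to 5000 UMIs and, over libraries, exact two-sided permutation tests. Scripts were tested on simulated data.

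The 7 genes, the other lists and the tests were chosen with earlier results of these data known. Named are the 7 genes, Trp53, the 3 tested genes of smallest p in each other list, marker and targeted genes, and close correlates; others were picked after their values were seen. Pcna, Btg2, Atf3, Sesn2, Cdkn2a and Cdkn2b stand in more than 1 list. In the removal of cells with other cell type markers, Dcn, Lum and Col1a1 were not counted, as smooth muscle cells express them. Alternatives used DESeq2 1.42.0, limma 3.58.1 (voom), other scalings, filters, cells and thinning depths, a replicate block and leaving out each library. Promoter sequences are from RefSeq (GRCm38.p6) and gene positions from GENCODE M21. The values of 1 gene of the senescence list are not reported here.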

Additional observations from a re-analysis of the deposited data

How the results depend on the processing

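Cdkn1a, Trp53inp1 and Phlda3 were called as higher in KO under all 14 other settings of the gene test and Gdf15 under all 13 that tested it; a filter at a mean of 20 CPM leaves Gdf15 untested. Ccng1 was called under 12 of 14 and Mdm2 under none. Bax was called under 6, with adjusted p-values of 0.0494 with RLE size factors, 0.0314 with library totals, 0.0423 with DESeq2, 0.0496 with limma-voom, 0.0462 without an expression filter and 0.0322 under that filter. The number of the 7 called was between 4 and 6 under all settings, and 4 to 5 when a library was left out; a lone library is then assumed to vary like the other group. The number of all genes called was 2938, and 1547 under the filter at 20 CPM, where fewer genes were tested; when a library was left out it ran from 1844 (without WT 1) to 2428. Deviations of same-numbered libraries from their group means had a correlation of 0.0437 over genes. With 2 libraries per group this cannot exclude a shared preparation, and the main fit used no pairing. With the replicate block, 3274 genes and the same number of the 7, 5, were called. With cells of at least 5000 UMIs and at most 5% mitochondrial UMIs, the log2 difference was 0.79 for Cdkn1a and 1.11 for Gdf15. The difference in detected genes per cell was 0.462 at 10000 UMIs, 0.189 at 2000 UMIs and 0.432 without thinning, where depth changes the scale, and 0.326 to 0.381 when a library was left out. Cells with 4 or more of the 7 were 3.71 and 4.95 times the independent number in KO at 2000 UMIs, and 7.29 and 5.82 times in WT. At 10000 UMIs these ratios were 1.11 and 1.20 in KO and 1.22 and 1.20 in WT. At both depths and without thinning, both WT libraries lay above both KO libraries, though KO 2 and WT 2 were nearly equal at 10000 UMIs. At 2000 UMIs the shares of the genotypes did not overlap for 6 of the 7 genes, Mdm2 being the exception. Pairs above 1 in all libraries numbered 16 at 10000 UMIs and 21 without thinning. With the top 10% of cells by immediate early load set against the rest in place of 3 equal parts, 2 genes, Cdkn1a and Gdf15, were above 1 in all 4 libraries. Over all 507 combinations of result and setting, 413 kept their call or stayed within a set limit of the main value, and 86 moved beyond it. For counts of called genes, that limit was a set fold of the main count. Another 6 gained and 2 lost a call. In the gene test, no log2 difference of the 7 genes reversed its direction. Counts of called genes could only stay or move. Depth limits most Gdf15, with 187 UMIs in the smallest library.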
